A study of Capra hircus with 12 samples.

Results

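Keratins 1, 5, 10, 14, 79 and 80 are intermediate filament proteins of the epidermis and of the outer root sheath, the cell layer that wraps the hair follicle and is continuous with the skin surface. Members were taken by gene name from a list of 8 keratin symbols. KRT1, KRT5, KRT10, KRT14, KRT79 and KRT80 each had a row, 6 of the 20326 genes in every library, and KRT17 and KRT75, keratins of the follicle's companion layer and outer root sheath, have no row under those names and are not analysed here. The RNA came from the cashmere-producing secondary hair follicles of Capra hircus goats at an age of 1.5 years. May and September libraries stand for anagen (growth), November and December for catagen (regression), February and March for telogen (rest). A male and a female library were made in every month, giving 4 libraries per stage and 12 in total, with no treatment or genotype in the labels. Each stage was sampled only in its own months, so stage and season cannot be told apart. The labels do not say whether animals were sampled in more than 1 month, nor how much surrounding skin came with the follicles, and the p-values below measure the spread between these libraries.

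Keratins build filaments only as pairs of 1 type I and 1 type II protein. KRT5 (type II) and KRT14 (type I) are the pair of basal keratinocytes, the dividing layer of the epidermis and outer root sheath. KRT1 (type II) and KRT10 (type I) replace them as cells leave the basal layer and differentiate. KRT79, a type II keratin, marks the infundibulum, the upper funnel of the follicle, in mouse skin, and KRT80 is a type II keratin associated with keratinocyte differentiation.

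Values are the deposited expression values, headed TPM (a transcript measure scaled by length) but with library sums of 904623 to 1127797, so they had been rescaled; read depth is unknown. Markers of keratinocytes were abundant, the sum over 9 genes lying at 15900 to 19522 in anagen, 13630 to 18872 in catagen and 9239 to 12425 in telogen; KRT5 and KRT14 themselves make up most of that sum. Of the 5 hair shaft markers with a row the sum was 958 to 1167, 841 to 1313 and 272 to 795 in the 3 stages. Summed markers of fibroblasts were 1182 to 1793, 707 to 1307 and 775 to 1626, of endothelium 109.99 to 136, 131 to 175 and 115 to 226, of smooth muscle 305 to 884, 585 to 1078 and 455 to 685, of skeletal muscle 5.37 to 221, 3.95 to 6.63 and 4.35 to 8.05, of melanocytes 39.5 to 63.1, 46.3 to 59.0 and 57.3 to 85.4, of leukocytes 40.2 to 55.4, 35.5 to 44.1 and 53.7 to 86.1, of sweat gland 119 to 239, 127 to 234 and 149.9 to 235, and of sebocytes 448 to 874, 569 to 761 and 622 to 1280. No marker with a row was at 0 in all 4 libraries of a stage. Transcripts of the mitochondrial genome took 1.53 to 2.42% of the signal in anagen, 2.07 to 3.51% in catagen and 4.63 to 11.8% in telogen, lowest within telogen in the March male. In these bulk samples, fewer cells of a type and less RNA per cell cannot be told apart.

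KRT5 and KRT14 were among the most abundant transcripts of the follicle in every library. Averaged over the 12 libraries, KRT5 stood at 5491 ± 1756 (SD, n = 12), KRT14 at 5205 ± 1308, KRT10 at 926 ± 385, KRT1 at 658 ± 347, KRT79 at 217 ± 87.1 and KRT80 at 157 ± 20.8. KRT5 ranked between 5th and 40th of all genes and KRT14 between 6th and 34th, whereas KRT80 ranked between 587th and 954th. The 6 genes together took 1.6 ± 0.381% of the signal in anagen, 1.21 ± 0.145% in catagen and 0.995 ± 0.111% in telogen (SD, n = 4). Levels of neighbours in this order were not all distinct: KRT5 exceeded KRT14 in 8 of 12 libraries, KRT10 exceeded KRT1 in 11 of 12 and KRT79 exceeded KRT80 in 9 of 12. KRT14 exceeded KRT10 in 12 of 12, on average 5.81-fold, and KRT1 exceeded KRT79 in 12 of 12, on average 2.90-fold. KRT80 varied least, its highest library being 1.53-fold its lowest, and KRT1 most, at 5.12-fold.

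**Figure D1:**
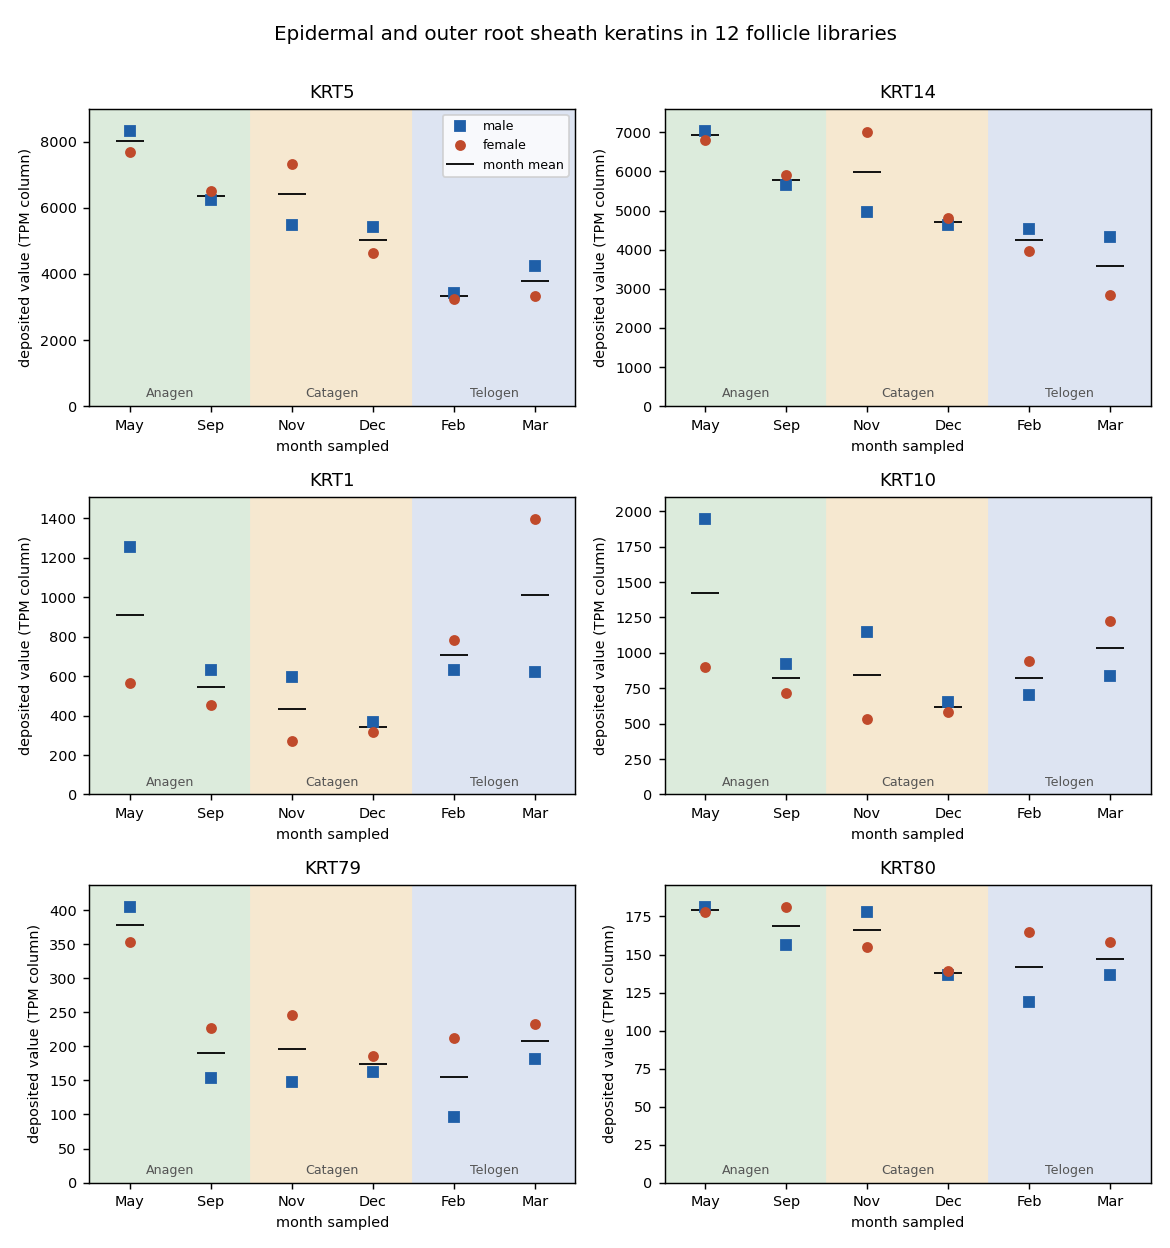
Deposited value (vertical axis, linear, from 0) of each keratin in the male (square) and female (circle) library of each month, with the month mean as a bar and the 3 stages shaded. KRT5 and KRT14 were lower in all 4 telogen libraries than in any other library, KRT1 was lower in all 4 catagen libraries than in any telogen library, and KRT10 was highest in the May male at 1947.

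The basal pair was lowest in telogen. KRT5, the type II basal keratin, had 8334 in the May male and 7681 in the May female, and 6231 in the September male and 6500 in the September female. In catagen it had 5494 in the November male and 7319 in the November female, and 5409 in the December male and 4648 in the December female. In telogen it had 3436 in the February male and 3249 in the February female, and 4255 in the March male and 3341 in the March female. All 4 telogen libraries lay below all 8 others, while catagen and anagen overlapped. KRT14, its type I partner, had 7039 in the May male and 6801 in the May female, and 5660 in the September male and 5919 in the September female. In catagen it had 4970 in the November male and 7004 in the November female, and 4628 in the December male and 4799 in the December female. In telogen it had 4517 in the February male and 3959 in the February female, and 4334 in the March male and 2836 in the March female. These too lay below all other libraries, by a narrow margin between 4517 in the February male and 4628 in the December male.

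The suprabasal pair followed another course, with its lowest stage mean in catagen. KRT1 had 1256 in the May male and 567 in the May female, and 631 in the September male and 456 in the September female. In catagen it had 594 in the November male and 273 in the November female, and 369 in the December male and 317 in the December female. In telogen it had 631 in the February male and 781 in the February female, and 622 in the March male and 1398 in the March female. Every telogen library lay above every catagen library, by a narrow margin between 594 in the November male and 622 in the March male. The female libraries lay further apart, at 273 and 317 in catagen and 781 and 1398 in telogen. Anagen overlapped both stages. KRT10 had 1947 in the May male and 900.2 in the May female, and 921 in the September male and 719 in the September female. In catagen it had 1146 in the November male and 536 in the November female, and 656 in the December male and 579 in the December female. In telogen it had 703 in the February male and 939 in the February female, and 838 in the March male and 1226 in the March female. All 3 stages overlapped for KRT10, and the May male was above every other library.

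KRT79 of the infundibulum was highest in May, at 404 in the male and 353 in the female. It had 153 in the September male and 226 in the September female, 147 in the November male and 246 in the November female, and 163 in the December male and 186 in the December female. In telogen it had 96.97 in the February male and 212 in the February female, and 182 in the March male and 233 in the March female. Both May libraries stood above all others, and the stages overlapped. The May libraries also stood apart in skeletal muscle markers, whose sum over 6 genes was 217 in the May male and 221 in the May female and 3.95 to 8.05 in the other 10 libraries; the part of this in the May values of KRT79 and KRT5 was not tested. KRT80 had 181 in the May male and 178 in the May female, 156 in the September male and 181 in the September female, and 178 in the November male and 155 in the November female. It had 136 in the December male and 139 in the December female, 119 in the February male and 165 in the February female, and 136 in the March male and 158 in the March female. KRT80 thus moved in a narrow band in which all stages overlapped.

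Telogen libraries were first set against those of catagen. Among the 6 keratins 1 rose and 1 fell, against a background of 7011 of 16095 genes (43.6%) that passed in either direction, 24.5% higher and 19% lower. KRT1 rose by 1.12 on the log2(value + 1) scale (SE 0.342, 95% interval 0.38 to 1.86, limma adjusted p = 0.0187), at 858 ± 367 in telogen and 388 ± 143 in catagen (SD, n = 4). KRT5 fell by 0.67 (SE 0.251, 95% interval -1.21 to -0.12, limma adjusted p = 0.0464), at 3570 ± 463 in telogen and 5717 ± 1134 in catagen. Their partners did not pass: KRT10 changed by 0.38 (95% interval -0.29 to 1.06, adjusted p = 0.339; 927 ± 222 in telogen and 729 ± 282 in catagen) and KRT14 by -0.45 (95% interval -1.01 to 0.11, adjusted p = 0.172; 3911 ± 754 and 5350 ± 1112). The telogen and catagen libraries did not overlap for 3 of the 6, KRT1, KRT5 and KRT14, which was so for 35.8% of all genes tested. KRT79 (-0.08, 95% interval -0.77 to 0.60) and KRT80 (-0.08, 95% interval -0.34 to 0.19) did not pass, and their sign turned with quantile normalization (0.09 and 0.07) and with libraries rescaled to a common sum. The median change of the 6 was -0.08, beside 0.07 over all genes tested. In the same comparison 5 of 7 leukocyte markers and 3 of 6 melanocyte markers rose and none of either fell. Of 9 keratinocyte markers, KRT5 and KRT14 among them, 2 rose and 3 fell. Of 5 hair shaft markers 4 fell and 0 rose, and of 7 endothelial markers 1 rose and 2 fell. Fibroblast, smooth muscle and sweat gland markers had 1 fall each, and sebocyte markers 1 rise. Mitochondrial transcripts were at 9.25 ± 3.18% of the signal in telogen and 2.99 ± 0.629% in catagen. The part of these markers and transcripts in the keratin differences was not tested.

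KRT1 no longer passed when the November female (adjusted p = 0.0598) or the March female (0.0535) was left out. These libraries held its lowest catagen and its highest telogen value, 273 and 1398. A test of sex by stage for KRT1 is given below. The KRT5 call was lost in 14 of 21 alternatives, among them quantile normalization (limma adjusted p = 0.132) and averaging the 2 libraries of each month (0.201). Leaving out any 1 of the May female, September female, both November, December male, both February or March female libraries also lost it. Adjusted p then lay between 0.0575 and 0.136. Rescaling each library to the same sum, under which 4371 genes were higher and 2058 lower against 3948 and 3063 as deposited, left KRT1 called and KRT5 not (adjusted p = 0.0659).

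Anagen libraries were then set against those of telogen. Both basal keratins were higher in anagen, 2 of 6 members, with 52.9% of all genes passing in either direction and 23.7% higher and 29.2% lower. KRT5 was higher by 1.01 (SE 0.251, 95% interval 0.46 to 1.55, limma adjusted p = 0.00505), at 7186 ± 991 in anagen and 3570 ± 463 in telogen (SD, n = 4). KRT14 was higher by 0.72 (SE 0.259, 95% interval 0.16 to 1.28, limma adjusted p = 0.0332), at 6355 ± 669 in anagen and 3911 ± 754 in telogen. For these 2 genes the anagen and telogen libraries did not overlap, as for 43.2% of all genes tested. The suprabasal pair did not pass, KRT1 at -0.27 (95% interval -1.004 to 0.47, adjusted p = 0.532) and KRT10 at 0.19 (95% interval -0.48 to 0.87, adjusted p = 0.624). KRT79, at 0.62 (95% interval -0.06 to 1.31, adjusted p = 0.113; 284 ± 115 in anagen and 181 ± 59.8 in telogen), and KRT80, at 0.28 (95% interval 0.01 to 0.54, adjusted p = 0.0773; 174 ± 12 and 145 ± 21.3), did not pass either. The median change was 0.45, beside -0.07 over all genes. In the same comparison 4 of 7 leukocyte, 4 of 7 endothelial and 3 of 6 melanocyte markers were lower in anagen and 1 endothelial marker was higher. Of 9 keratinocyte markers, KRT5 and KRT14 among them, 5 were higher and 3 lower, and of 5 hair shaft markers 4 were higher and 0 lower. Skeletal muscle markers had 2 higher, sweat gland markers 2 higher and 1 lower, and sebocyte markers 2 lower. Mitochondrial transcripts took 1.83 ± 0.413% of the signal in anagen and 9.25 ± 3.18% in telogen, and ribosomal protein transcripts 20.1 ± 2.16% in anagen and 15.01 ± 2.32% in telogen (SD, n = 4). Their part in these differences was not tested.

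KRT5 kept its call in 20 of 21 alternatives and lost it when the 2 libraries of each month were averaged (adjusted p = 0.0605). KRT14 lost its call in 11 of 21, among them the same averaging (limma adjusted p = 0.15) and quantile normalization (0.0521). The call was also lost without the March, February or September female or either May library (adjusted p between 0.0553 and 0.0754). Without both May libraries adjusted p was 0.151. KRT79 passed without the September male (0.0246) and KRT80 without the February female (0.0495), and the sign of KRT10 turned without the May male (-0.11).

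Catagen libraries were set against those of anagen as well. None of the 6 keratins passed in limma, and 1, KRT1, had an unadjusted p under 0.05; over all genes 9 of 16095 passed (0.0559%) and 2519 had an unadjusted p under 0.05. KRT1 changed by -0.86 (SE 0.342, 95% interval -1.59 to -0.12, adjusted p = 0.276), at 388 ± 143 in catagen and 727 ± 360 in anagen (SD, n = 4). KRT10 changed by -0.58 (95% interval -1.26 to 0.10, adjusted p = 0.374), KRT79 by -0.54 (95% interval -1.23 to 0.14, adjusted p = 0.404), KRT5 by -0.34 (95% interval -0.88 to 0.20, adjusted p = 0.506), KRT14 by -0.26 (95% interval -0.82 to 0.30, adjusted p = 0.622) and KRT80 by -0.20 (95% interval -0.47 to 0.07, adjusted p = 0.43). All 6 estimates were negative, with a median of -0.44 beside -0.02 over all genes. Without both May libraries they stayed negative but ran from -0.53 for KRT1 to -0.03 for KRT79, and 0 of 6 passed. With all libraries, no keratin had stages that did not overlap, which 7.03% of all genes did.

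**Figure D2:**
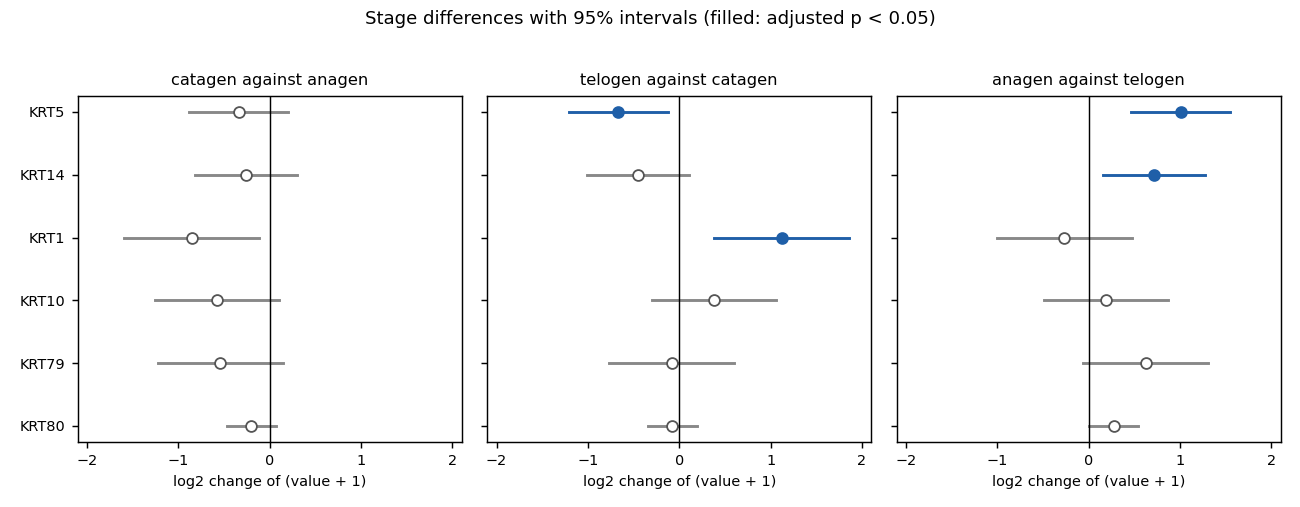
Log2 change of (value + 1) of each keratin in the 3 stage comparisons (points) with 95% intervals (lines), where positive values are higher in the stage named first and filled points have adjusted p < 0.05. The filled points are KRT5 (-0.67) and KRT1 (1.12) in telogen against catagen, and KRT5 (1.01) and KRT14 (0.72) in anagen against telogen.

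Within a library, the ratio of 2 keratins does not depend on how the library was scaled, and the ratio of KRT1 to KRT10 separated the stages. These ratios were chosen after the values were seen and are given without a test. The share of all gene pairs whose ratio separates the stages was not worked out. For single genes, telogen and catagen libraries did not overlap for 35.8% of all genes tested. The share was 43.2% for anagen and telogen, and 7.03% for catagen and anagen. The separation is therefore a description of this ratio and was not shown to be special to KRT1 and KRT10. KRT1 over KRT10 was 0.645 in the May male and 0.63 in the May female, and 0.685 in the September male and 0.634 in the September female. In catagen it was 0.519 in the November male and 0.509 in the November female, and 0.563 in the December male and 0.547 in the December female. In telogen it was 0.898 in the February male and 0.832 in the February female, and 0.742 in the March male and 1.14 in the March female. The 4 libraries of each stage formed a range of their own, catagen lowest, anagen between and telogen highest, with means of 0.648 ± 0.0252 in anagen, 0.534 ± 0.0249 in catagen and 0.903 ± 0.17 in telogen (SD, n = 4). In the May male, which had the highest KRT10 of all, the ratio lay within the range of the other anagen libraries. Only in the March female was KRT1 above its partner.

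KRT5 over KRT14 did not separate the stages. It was 1.13 ± 0.0397 in anagen, 1.07 ± 0.0855 in catagen and 0.935 ± 0.187 in telogen (SD, n = 4), with 0.761 in the February male and 0.821 in the February female, and 0.982 in the March male and 1.18 in the March female. The 2 February libraries were below all others, and the March female was as high as the May male. The sum of the suprabasal pair over that of the basal pair was 13.4 ± 5.22% in anagen, 10.5 ± 4.55% in catagen and 25 ± 12.1% in telogen. Telogen ran from 16.8% in the February male to 42.5% in the March female, and lay above all catagen libraries, whose highest was 16.6% in the November male; anagen, from 9.46% to 20.8%, overlapped both.

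**Figure D3:**
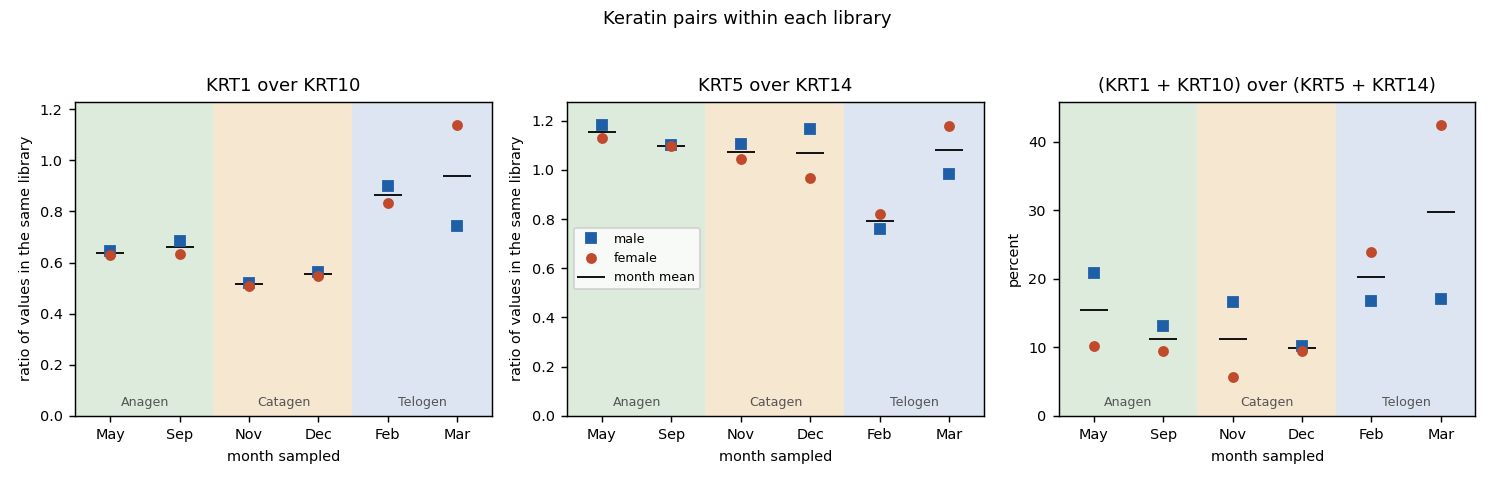
Ratio of KRT1 to KRT10, ratio of KRT5 to KRT14 and the sum of KRT1 and KRT10 as a percentage of the sum of KRT5 and KRT14 (vertical axes, from 0) in the male (square) and female (circle) library of each month, with the month mean as a bar. KRT1 over KRT10 lay at 0.509 to 0.563 in catagen, 0.63 to 0.685 in anagen and 0.742 to 1.14 in telogen without overlap. The ratios were chosen after the values were seen.

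Months within a stage gave no call for any of the 6 keratins. September against May had 0 of 6 passing in limma with 1 at an unadjusted p under 0.05, where 22 of all genes passed (0.137%, of which 0.0311% higher and 0.106% lower) and 1572 had an unadjusted p under 0.05. That keratin was KRT79, which changed by -1.02 (SE 0.362, 95% interval -1.82 to -0.21, adjusted p = 0.425), with 153 in the male and 226 in the female in September, and 404 in the male and 353 in the female in May. December against November and March against February had 0 of 6, and 0 at an unadjusted p under 0.05, where 0 (0%) and 1 (0.00621%) of all genes passed. Over all genes 588 (3.65%) and 636 (3.95%) had an unadjusted p under 0.05 in these 2 comparisons. These comparisons rest on 2 libraries per month.

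Between neighbouring months of different stages, KRT5 was higher in May than in March, 1 of 6 members, where 27.4% of all genes passed, 13.9% higher and 13.4% lower. KRT5 was higher by 1.09 (SE 0.338, 95% interval 0.33 to 1.84, limma adjusted p = 0.0397), a call lost without 9 of the 12 libraries, all but the November female, November male and March male (adjusted p between 0.057 and 0.159). KRT14, at 0.98 (95% interval 0.19 to 1.77, adjusted p = 0.0637), and KRT79, at 0.87 (95% interval 0.07 to 1.68, adjusted p = 0.0945), did not pass. KRT14 passed without the March male (0.0211), and KRT79 without the February female (0.0468) or February male (0.0471). February against December had 0 of 6 (16.6% of all genes passing, 8.9% higher and 7.69% lower). At an unadjusted p under 0.05 it also had 0 of 6, beside 36.4% of all genes. In limma KRT1 was at 1.04 (95% interval -0.05 to 2.13, adjusted p = 0.154) and KRT5 at -0.59 (95% interval -1.34 to 0.17, adjusted p = 0.232). November against September had 0 of 6 and 0 at an unadjusted p under 0.05, where 3 of all genes passed (0.0186%). Of all genes 1.86% had an unadjusted p under 0.05 there. In limma's F test over the 6 months 0 of 6 passed and 2 had an unadjusted p under 0.05, KRT5 (adjusted p = 0.0696) and KRT79 (adjusted p = 0.101), where 32.7% of all genes passed and 47.1% had an unadjusted p under 0.05. Without the March male KRT5 (0.0336) and KRT1 (0.0492, against 0.141 with all libraries) passed, and without the February female KRT79 did (0.0366).

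Between male and female follicles no keratin passed the threshold. With month as a block 0 of 6 passed in limma and 1 had an unadjusted p under 0.05, where 9 of all genes passed (0.0559%, of which 0.0435% higher and 0.0124% lower) and 1185 had an unadjusted p under 0.05. KRT79 was that gene, with a log2 change of -0.46 (SE 0.157, 95% interval -0.82 to -0.11, adjusted p = 0.616), at 191 ± 108 in males and 243 ± 57.8 in females (SD, n = 6), and lower in the male in 5 of 6 months. KRT1 and KRT10 were each higher in the male in May, September, November and December and lower in the male in February and March. For KRT1 the log2 difference of male minus female was 1.15 in May, 0.47 in September, 1.12 in November, 0.22 in December, -0.31 in February and -1.17 in March. The test of whether stage differences depended on sex gave an unadjusted p of 0.0256 and adjusted p = 0.477 for KRT1 and adjusted p = 0.583 for KRT10 in limma, with 0 of 6 passing and 1 of all genes (0.00621%). An unadjusted p under 0.05 was found for 9.28% of all genes.

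The other keratins of simple, stratified and stressed epithelia had 16 of 21 listed genes with a row, of which 13 were tested. In telogen against catagen 1 rose and 2 fell (23.1% passing, below the 43.6% of all genes), with a median change of -0.07 beside 0.07 over all genes. KRT6A, a stress-inducible keratin also of the follicle's companion layer, fell by 0.86 (SE 0.248, limma adjusted p = 0.0146), at 435 ± 183 in telogen and 752 ± 141 in catagen (SD, n = 4). KRT8, of simple epithelia, fell by 0.95 (adjusted p = 0.00817), at 44.5 ± 10.8 and 87.4 ± 24.2. KRT20 rose by 0.51 (adjusted p = 0.0143) at values of 0.84 ± 0.309 and 0.282 ± 0.146, near the lower limit of the tested genes. In anagen against telogen 4 were higher and 1 lower (38.5% passing, below the 52.9% of all genes), with a median of 0.36 beside -0.07. KRT6A was higher by 1.18 (limma adjusted p = 0.00187) and KRT8 by 0.88 (adjusted p = 0.00903). KRT9 was higher by 1.25 (adjusted p = 0.0346), at 8.365 ± 5.06 in anagen and 2.44 ± 1.05 in telogen, and its libraries overlapped. KRT4, a keratin of mucosal epithelia, was higher by 2.12 (adjusted p = 9.71e-04), with 9.44 ± 6.53 in anagen and 1.01 ± 0.258 in telogen. KRT20 was lower (-0.53, adjusted p = 0.00962). In catagen against anagen none passed, where 0.0559% of all genes did.

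Beside the 6 epidermal and outer root sheath keratins stand those that form the hair and its inner sheath. Of 17 listed hair shaft keratins 8 had a row, and of 9 listed inner root sheath genes, trichohyalin among them, 5 did. In telogen against catagen 5 of the 8 hair shaft keratins fell and 0 rose (62.5% lower, median -1.08). Of the 5 inner root sheath genes 3 fell and 0 rose (60% lower, median -1.06). Among the 6 keratins 1 fell and 1 rose (median -0.08), and over all genes 19% were lower and 24.5% higher. In anagen against telogen 7 of 8 hair shaft and 4 of 5 inner root sheath genes were higher and 0 lower (medians 1.09 and 1.42). Of the 6 keratins 2 were higher (median 0.45), and over all genes 23.7% were higher and 29.2% lower. In catagen against anagen 0 of 8 and 0 of 5 passed (medians -0.16 and -0.36), where 0.0559% of all genes did. KRT35, of the hair cortex, was at 265 ± 116 in telogen and 529 ± 136 in catagen, and KRT25, of the inner root sheath, at 2531 ± 1157 and 4847 ± 1099 (SD, n = 4); KRT27 and KRT74 were the other inner root sheath genes that fell. These counts describe the lists, and the difference between lists was not tested.

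**Figure D4:**
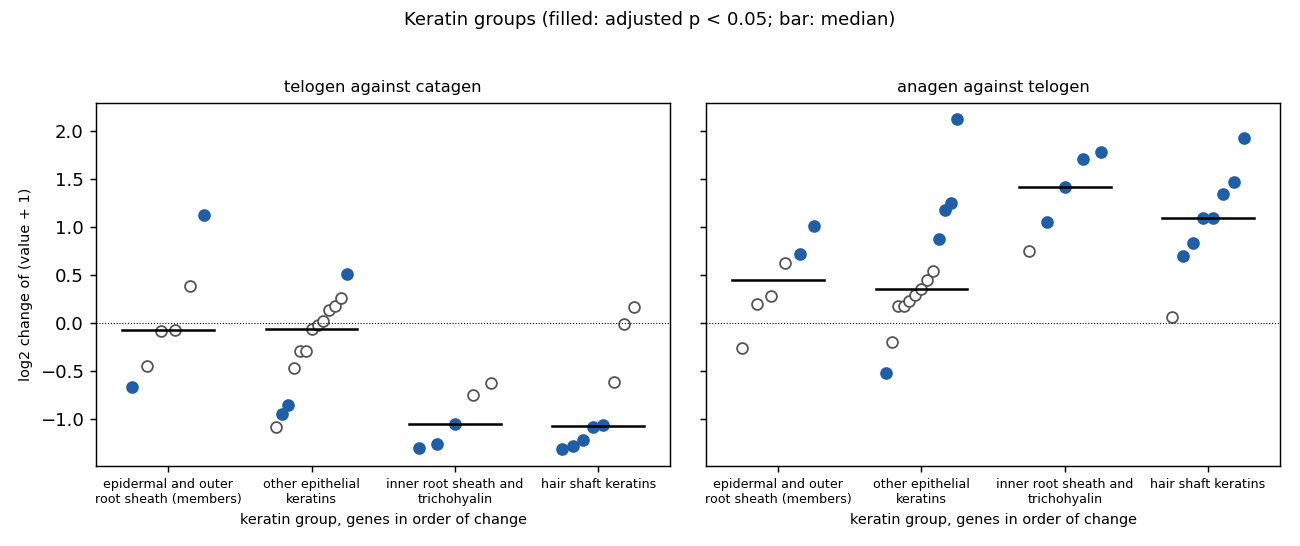
Log2 change of (value + 1) of each tested keratin in 4 groups, in telogen against catagen and in anagen against telogen, with genes in order of change, filled points at adjusted p < 0.05 and the group median as a bar. In telogen against catagen the medians are -0.08 for the 6 epidermal and outer root sheath keratins, -0.07 for other epithelial keratins, -1.06 for the inner root sheath and -1.08 for the hair shaft.

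Of 24 tested epidermal regulators 8 rose and 8 fell in telogen against catagen (33.3% each way, beside 24.5% higher and 19% lower over all genes; median -0.15 beside 0.07). TP63, the transcription factor of the basal layer known to drive KRT5 and KRT14, rose by 0.95 (SE 0.156, limma adjusted p = 9.03e-04), at 504 ± 108 in telogen and 257 ± 33.5 in catagen (SD, n = 4). It was at 483 in the February male, 578 in the February female, 361 in the March male and 596 in the March female, each above every other library. GRHL1, a grainyhead factor of differentiating epidermis, rose by 0.31 (adjusted p = 0.0152), whereas CEBPB fell by 0.73 (adjusted p = 5.59e-04) and KLF4 by 0.37 (adjusted p = 0.0247). Between anagen and telogen 8 were higher and 8 lower in anagen (33.3% each way, beside 23.7% higher and 29.2% lower over all genes; median -0.08 beside -0.07), with TP63 lower by 1.35 (-1.35, adjusted p = 1.28e-04), GRHL1 at -0.26 (adjusted p = 0.0288), CEBPB at 0.74 (adjusted p = 2.48e-04) and KLF4 at 0.50 (adjusted p = 0.00403). In catagen against anagen 0 of 24 passed (median 0.00), where 0.0559% of all genes did.

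Of 13 genes that anchor basal cells 5 fell and 1 rose in telogen against catagen (46.2% passing, near the 43.6% of all genes; median -0.30). ITGB1, the beta subunit of basal integrins, fell by 0.63 (limma adjusted p = 0.00137), CD151, a tetraspanin bound to them, by 0.94 (adjusted p = 8.86e-04) and PLEC, plectin, which ties keratin filaments to hemidesmosomes, by 0.99 (adjusted p = 7.40e-04). LAMA3, a laminin chain, rose by 0.46 (adjusted p = 0.00939). Between anagen and telogen 6 were higher and 2 lower in anagen (61.5% passing, beside 52.9% of all genes; median 0.28), with ITGB1 at 0.53 (adjusted p = 0.00212), CD151 at 1.11 (adjusted p = 2.13e-04), PLEC at 1.23 (adjusted p = 1.57e-04) and ITGA6 at -0.33 (adjusted p = 0.016). In catagen against anagen 0 of 13 passed (median -0.16), where 0.0559% of all genes did.

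Of 22 tested genes of suprabasal differentiation 4 rose and 5 fell in telogen against catagen (40.9% passing, near the 43.6% of all genes; median -0.20), with LYPD3 at 0.65 (limma adjusted p = 0.00874), SERPINB5 at -0.37 (adjusted p = 0.0211), CLDN4 at -0.50 (adjusted p = 0.0183) and TGM3, an epidermal transglutaminase, at -0.69 (adjusted p = 0.0478). Anagen against telogen gave 9 higher and 3 lower (54.5% passing, near the 52.9% of all genes; median 0.11), among them DMKN at 0.95 (adjusted p = 0.002), CDSN, corneodesmosin, at 0.83 (adjusted p = 0.016), ASPRV1 at 1.20 (adjusted p = 0.00251) and DSC1, a desmosomal cadherin, at -0.28 (adjusted p = 0.0465). In catagen against anagen 0 of 22 passed (median -0.19), where 0.0559% of all genes did.

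Of the 19 tested outer root sheath and bulge genes 7 rose and 0 fell in telogen against catagen (36.8% passing, beside 43.6% of all genes; median 0.17), among them IGFBP5 at 0.54 (limma adjusted p = 0.00253), CD34 at 0.64 (adjusted p = 0.0126), LHX2 at 0.62 (adjusted p = 0.0121) and TCF7L2 at 0.99 (adjusted p = 7.90e-04). Anagen against telogen gave 2 higher and 6 lower (42.1% passing, beside 52.9% of all genes; median -0.06), with SOX9, a factor of outer root sheath stem cells, at -0.57 (adjusted p = 0.00189), CD34 at -0.79 (adjusted p = 0.00293), LHX2 at -0.51 (adjusted p = 0.024) and BARX2 at 0.54 (adjusted p = 0.0067). Of 17 infundibulum and sebaceous gland genes 7 rose and 1 fell in telogen against catagen (47.1% passing, near the 43.6% of all genes; median 0.44), with MGST1 at 1.05 (adjusted p = 0.00488), ACSL1 at 0.48 (adjusted p = 0.0155), PRDM1 at 0.44 (adjusted p = 0.00947) and FABP5 at -0.90 (adjusted p = 0.00335). In anagen against telogen 3 were higher and 8 lower (64.7% passing, beside 52.9% of all genes; median -0.36), with MGST1 at -1.37 (adjusted p = 6.72e-04), SCD at -1.21 (adjusted p = 0.0314), SOAT1 at -0.91 (adjusted p = 0.0472) and FABP5 at 0.92 (adjusted p = 0.00189). In catagen against anagen 0 of 19 and 0 of 17 passed (medians -0.11 and -0.02), where 0.0559% of all genes did.

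Neighbouring genes were read from the order of genes in the RefSeq table of the assembly ARS1.2; the build behind the deposited values is not given in the sources used here, and no coordinates are taken from it. KRT6A, next to KRT5, was lower in telogen as KRT5 was. The other neighbour of KRT5, LOC102177231, which the table does not name, was as abundant as the basal keratins, at 5394 ± 945 in anagen, 4758 ± 1116 in catagen and 3644 ± 1227 in telogen (SD, n = 4), and passed in none of the 3 stage comparisons (adjusted p = 0.782, 0.288 and 0.113). Next to KRT1 lie KRT77, at 143 ± 75.5, 91.1 ± 18.3 and 95.6 ± 41.5 in the 3 stages, and KRT2, at 12.1 ± 4.65, 8.93 ± 1.38 and 10.2 ± 1.26, neither of which passed in a stage comparison. KRT77 over KRT1 was 0.202 ± 0.0667 in anagen, 0.246 ± 0.0558 in catagen and 0.112 ± 0.0256 in telogen. Next to KRT10, LOC102168573 was lower in telogen than in catagen by log2 -0.996 (adjusted p = 0.00834; 142 ± 64.6 and 264 ± 27.6), where KRT10 was not. KRT4, next to KRT79, was higher in anagen than in telogen, as given above, and KRT78, on the other side with 1 annotated gene between, passed in no stage comparison. On one side of KRT80 lies C5H12orf80, which passed in no stage comparison, and on the other, with 2 annotated genes between, ATG101. ATG101 fell by 0.96 in telogen against catagen (limma adjusted p = 0.00433) and was higher by 1.55 in anagen against telogen (adjusted p = 2.21e-04), where KRT80 passed in neither. KRT14 lies between KRT9 and LOC102180424, which was at 6.07 ± 1.32, 6.23 ± 2.79 and 5.74 ± 2.16. Keratins are close in sequence, and reads shared between KRT14, KRT6A or KRT5 and unnamed or missing relatives such as KRT17 could have been assigned to either, so levels of single keratins carry that uncertainty.

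The genes most like each keratin over the 12 libraries were looked up among 10660 tested genes with a mean of at least 5 and a name other than a LOC number. The measure was Pearson's r of log2(value + 1), a description with no test, and it includes the difference between telogen and the other libraries that many genes share. KRT5 was closest to COMMD4 (r = 0.991), RABEP2 (0.989) and CIRBP (0.988), and KRT14 to CHRD (0.979), SDC1 (0.976) and TPCN1 (0.974). KRT1 was closest to SCNN1A (0.931), FKBP15 (0.927) and ATRN (0.914), and KRT10 to ATRN (0.912), RND2 (0.889) and KRT1 itself (0.885). KRT79 was closest to ITGB4 (0.943), SUPT5H (0.931) and MRPL37 (0.93), and KRT80 to KYAT1 (0.956), IRF3 (0.937) and IL34 (0.931). Both KRT79 and ITGB4 were highest in the May libraries, and their correlation by rank (Spearman's rho) was 0.818. KRT1 was the only member among the 3 closest genes of another member.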

How the data were processed

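The authors deposited 1 signal value per gene and library under the heading TPM, per the file headers. Library sums differ, so the authors had rescaled the signal values before they were deposited, by a step not given in the sources used here. Kallisto 0.46.1 and sleuth 0.30.0 are named in the submitters' processing notes; the genome build is not given in the sources used here. Extraction used RNAiso Plus, per the labels.

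Symbols were taken from a RefSeq table by gene number (20294 of 20326 matched), since some files hold symbols turned into dates. Values were analysed as log2(value + 1), which shrinks changes of low genes. A gene entered the tests if 2 or more libraries reached 1, which left 16095 genes, all 6 keratins among them. The models came from limma 3.58.1 (R 4.3.3) with a mean-variance trend, over all 12 libraries, with 1 group per stage or 1 per month, or with month as a block for sex. Benjamini-Hochberg adjustment ran over all genes tested, and a gene passed at adjusted p < 0.05. No pair of libraries had equal values in more than 1.55% of tested genes. The method was tested on simulated data.

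The keratins, gene lists and tests were chosen with earlier results of these data known. All 6 keratins are described in every stage comparison, up to 4 passing genes of highest mean are named per list, and the 3 most correlated genes per keratin are named. Of the hair shaft and inner root sheath lists the passing gene of highest mean is given with values. Alternatives were 3 scalings, no filter, a constant of 0.1, averaged months, the replicate number as a block, no May libraries, no month block and each library left out; a fit without the May male and March male was chosen after seeing the data.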

Additional observations from a re-analysis of the deposited data

Results flagged for a closer look

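The search covered 27 groups of 4 libraries, the 6 keratins, 2 pair ratios and the summed share in each stage, and chance alone marks about 1 group in 20; 3 libraries stood far from the other 3 of their stage. KRT10 in the May male, at 1947, lay far above the other anagen libraries (719 to 921). KRT14 in the November female, at 7004, lay far above the other catagen libraries (4628 to 4970). KRT80 in the September male, at 156, lay below the other anagen libraries (178 to 181). The causes were not tested.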

How the results depend on the processing

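Of 592 tests of a keratin under an alternative 529 kept their direction and side of the threshold, 39 lost a call, 13 gained one and 11 changed sign. Keratins passing in telogen against catagen were 1 in place of 2 with quantile normalization, either rescaling, no filter, the replicate block or averaged months, and 0 to 2 with 1 library left out. In anagen against telogen they were 1 in place of 2 with quantile normalization, the rescaling without mitochondrial and ribosomal protein genes, no filter, no May libraries or no May male and March male, 0 with averaged months, and 1 to 3 with 1 library left out. In May against March they were 2 in place of 1 with quantile normalization (KRT14 gained) or the replicate block (KRT79 gained, adjusted p = 0.0438), 0 with that same rescaling or no filter, and 0 to 2 with 1 library left out. In the F test over months they were 1 in place of 0 with quantile normalization or a common sum (KRT5) or the replicate block (KRT79, adjusted p = 0.0396), and 0 to 2 with 1 library left out. The sign of KRT79 and KRT80 in telogen against catagen turned with quantile normalization (0.0946 and 0.0742) and a common sum (0.013 and 0.019); with 1 library left out they ran from -0.23 to 0.19 and -0.14 to 0.0155. KRT10 in anagen against telogen was -0.16 without both May libraries, -0.15 without the May male and March male, and -0.11 to 0.37 with 1 library left out.

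Genes passing in all numbered 9 in catagen against anagen, 4 without both May libraries or without the May male and March male, and 3 to 13 with 1 library left out. They numbered 22 in September against May, 12 with a constant of 0.1 and 11 to 33 with 1 library left out. In November against September they were 3, 5 with that constant, 1 with the replicate block and 0 to 5. In March against February they were 1, 0 with a common sum and 0 to 12, and in December against November 0 and 0 to 3. They were 2671 in February against December (19 to 4467), 4402 in May against March (264 to 5956) and 5259 in the F test (2293 to 7237). For sex by stage they were 1, 5 with a common sum, 2 with the other rescaling, 4 with no filter and 0 to 4. The causes were not tested. The replicate number marks sex, and whether it also marks shared animals is not given: deviations of the female libraries from their month means correlated between -0.255 and 0.442 over 15 pairs of months, 9 of them above 0.1. Of 504 list counts 11 moved by over 1.5 times. Read depth is unknown, so counting error could not be set beside these values.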
